A study of Mus musculus with 18 samples.

Results

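The genes described here are 9 genes of transforming growth factor beta (TGF-beta) signaling in mouse colonic epithelium, found by symbol in count tables that held 55453 gene names. They are the ligands Tgfb1 and Tgfb2, the receptors Tgfbr1 and Tgfbr2, the signal transducer Smad3, the feedback inhibitors Smad7, Pmepa1 and Skil, and the target Tgfbi. All 9 passed the filter on low counts, which kept 20787 genes. A further 62 genes of the same pathway served as context, and 59 of them passed the filter. Inha (110 reads over all libraries), Mstn (15 reads) and Nodal (3 reads) did not.

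RNA-Seq had been performed on 18 libraries from female Swiss Webster mice. Polypoid dysplasia (P) and non-dysplastic epithelium (ND) came from mice fed chow with 8 mg/kg folic acid (FA) (8P, n = 5, and 8ND, n = 5) or with 0 mg/kg FA (0P, n = 4, and 0ND, n = 4). All 4 groups shared an azoxymethane (AOM) injection at 7 weeks of age, basal chow with 2 mg/kg FA, and 4 cycles of 2% dextran sulfate sodium (DSS) from 9 weeks. The 0 or 8 mg/kg diet began at 11 weeks and lasted 16 weeks, and colons were collected at 27 weeks. AOM is a colon carcinogen and DSS in drinking water causes colitis, so no library came from an untreated colon. Epithelium was cut by laser microdissection (LMD) from formalin-fixed tissue, and the labels do not say which animal gave which library. P-values therefore measure the spread between these samples, and whether ND and P tissue of 1 mouse was used is not stated.

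TGF-beta is secreted in a latent form, and integrins and other factors outside the cell release it. The active ligand joins a type II receptor (TGFBR2) to a type I receptor (TGFBR1), which phosphorylates SMAD2 and SMAD3, and these enter the nucleus with SMAD4. SMAD7, PMEPA1 and SKIL are switched on by the signal and limit it, SMAD7 at the receptor, PMEPA1 by holding back SMAD2 and SMAD3, and SKIL by repressing SMAD complexes on DNA. In the colon the pathway is known for restraining epithelial growth, and TGFBR2 is often mutated in human colorectal cancers with unstable microsatellites.

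Upstream sequences are shown for Tgfbi and Tgfbr1, which were both higher in 0P than in 0ND. Their main windows differ in matches to the motif bound by SMAD proteins. RefSeq entries (GRCm38.p6) matched 6 of the 9 genes, and the 250 bases before each start were searched for CAGAC, or GTCTG on the other strand. Of 32851 such windows across the genome, 42.2% held it. The window of Tgfbi held 2 matches, 239 and 85 bases before the start, and that of Tgfb2 held 2, at 221 and 204 bases. Tgfbr2 had 1 match (160 bases), while Tgfb1, Smad3 and the main start of Tgfbr1 had 0. A second entry for Tgfbr1, at a start further into the gene, had 1 match (203 bases). The longer palindrome GTCTAGAC was in 0.167% of the windows and in none of these. Pmepa1, Smad7 and Skil had no matching entry. Both sequences run 5′ to 3′ on the plus strand and stop before the first annotated base of the gene in GENCODE (Tgfbi chr13:56609336-56609522, Tgfbr1 chr4:47352972-47353221), with the motif in capitals.
Tgfbi upstream: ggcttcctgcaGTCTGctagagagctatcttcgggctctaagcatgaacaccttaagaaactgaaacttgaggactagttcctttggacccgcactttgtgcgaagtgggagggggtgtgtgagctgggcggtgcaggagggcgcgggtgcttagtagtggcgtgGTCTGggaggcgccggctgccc
Tgfbr1 upstream: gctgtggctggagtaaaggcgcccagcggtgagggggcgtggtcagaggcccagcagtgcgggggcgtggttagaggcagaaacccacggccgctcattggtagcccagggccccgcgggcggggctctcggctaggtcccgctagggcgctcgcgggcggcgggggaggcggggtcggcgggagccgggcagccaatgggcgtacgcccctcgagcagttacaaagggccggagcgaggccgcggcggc
A match shows only that these letters occur in the window.

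The 9 genes lie on 8 chromosomes of mm10, by the GENCODE M21 annotation. The ligands are Tgfb1 (chr7:25687002-25705077) and Tgfb2 (chr1:186622792-186705989). The receptors are Tgfbr1 (chr4:47353222-47414931) and Tgfbr2 (chr9:116084293-116175360), and Smad3 (chr9:63646767-63757994) shares a chromosome with Tgfbr2. The inhibitors are Smad7 (chr18:75367529-75395935), Pmepa1 (chr2:173224458-173276533) and Skil (chr3:31095058-31122577), and the target is Tgfbi (chr13:56609523-56639562). Tgfb2 alone among them overlapped other genes, an antisense gene model and a small nucleolar RNA with 30 reads and 1 read over all libraries, against 2476 reads for Tgfb2.

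Total counts on genes ran from 3500947 to 17048524 per library. The cut tissue carried epithelial markers throughout, with none of 10 at 0 in any library, and carried markers of other cell types as well, with 8 of the 64 others at 0 in at least 1 library (among them Nkg7, Klrb1c, S100a8, Retnlg and Ngp). Summed smooth muscle markers (8 genes) were at 290.1 to 656 CPM in 8P and 412 to 760.1 CPM in 0P, below all ND libraries at 1072 to 1817 CPM in 8ND and 1069 to 2693 CPM in 0ND. Summed fibroblast markers (10 genes) were at 1079 to 2459.8 CPM in 8P, 1621 to 2076 CPM in 0P, 1363 to 1579 CPM in 8ND and 1149 to 1250.4 CPM in 0ND. Of the smooth muscle markers 8 of 8 were lower in 8P vs 8ND and 7 of 8 in 0P vs 0ND. Of the 10 epithelial markers 7 and 4 were lower and 1 was higher in each. Over all genes, 14.3% were called lower and 13.9% higher in 8P vs 8ND, and 15.7% lower and 15.9% higher in 0P vs 0ND. Summed B and plasma cell markers (10 genes) were at 619.6 to 2264 CPM in 8P, against 2873 to 5932 CPM in 8ND, and at 834 to 1197 CPM in 0P, against 1806 to 3250.0 CPM in 0ND. Of 6 tested neutrophil markers 4 were higher and 1 lower at each dose. The part of these shifts in the values of the 9 genes was not tested. In such samples fewer cells of a type and less RNA per cell cannot be told apart. On the first principal component of all genes (45.6% of the variance), 8ND 1 and 8ND 2 lay at -27.8 and -27.9, against -82.8 to -48.6 for the other ND libraries and 30.5 to 75.6 for P.

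Levels are given as CPM, counts scaled to the size of the library, after TMM scaling, and levels of different genes are compared per kb of annotated exon. On that per-length scale the ligands were lowest, with group means of 1.41 to 2.85 CPM per kb for Tgfb2 and 4.37 to 5.70 CPM per kb for Tgfb1. Smad3 followed at 10.3 to 12.9 CPM per kb. Pmepa1 was the highest in dysplasia, at 61.2 ± 7.26 CPM per kb in 8P and 49.0 ± 2.92 CPM per kb in 0P, followed by Skil at 32.2 ± 5.07 and 28.5 ± 1.67 CPM per kb (SD, n = 5 and 4). In 0ND the highest means were those of Skil (22.1 ± 2.79 CPM per kb) and Tgfbr2 (19.2 ± 1.67 CPM per kb), with Pmepa1 at 14.7 ± 2.32 CPM per kb (SD, n = 4).

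**Figure D1:**
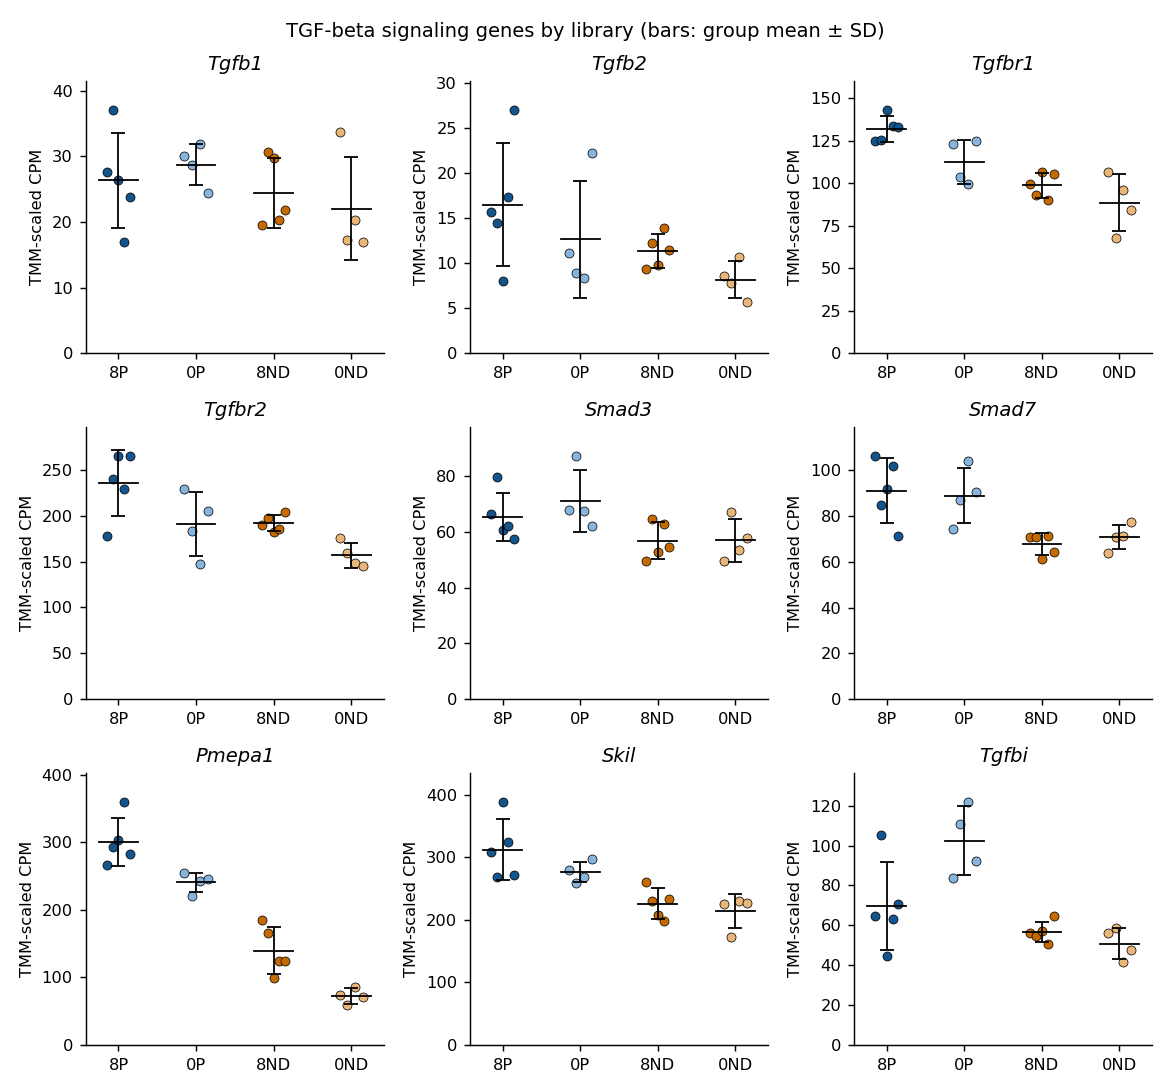
TMM-scaled CPM of the 9 genes in each of the 18 libraries, with 8P and 0P left of 8ND and 0ND. Points are libraries, and the bars give the group mean and SD. Pmepa1 separates all 4 groups, while the ligands overlap in every pair of groups.

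Pmepa1, which holds back SMAD2 and SMAD3, varied most between the groups. Its level was 266, 293, 303, 359.8 and 283 CPM in the 8P libraries and 255, 221, 242 and 245 CPM in 0P. It was 184, 166, 99.3, 124 and 124 CPM in 8ND and 73.7, 58.5, 86.3 and 71.0 CPM in 0ND. The groups did not overlap anywhere in the order 8P, 0P, 8ND, 0ND from high to low. Of the 20787 genes tested, 1 (0.00481%) had its groups apart in that order, which is Pmepa1 itself, and the order was read from Pmepa1 first, so the share is a description. For the other 8 genes at least 1 pair of neighbouring groups overlapped.

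The comparisons of P with ND asked which genes differ between dysplasia and non-dysplastic epithelium at each dose. On 0 mg FA, 4 of the 9 genes were higher in 0P than in 0ND and none lower (Pmepa1, Tgfbi, Skil and Tgfbr1), where 15.9% of all genes were called higher and 15.7% lower. On 8 mg FA, 4 of the 9 were higher in 8P than in 8ND and none lower (Pmepa1, Skil, Smad7 and Tgfbr1), where 13.9% of all genes were called higher and 14.3% lower. All 9 log2 fold changes were above 0 in both comparisons, with medians of 0.37 and 0.42, against -0.03 and 0.0020 over all tested genes. The groups did not overlap for 3 of the 9 in 0P vs 0ND (Pmepa1, Skil and Tgfbi, with 16.2% of all genes so placed) and for 3 in 8P vs 8ND (Pmepa1, Skil and Tgfbr1, with 8.26%). Pmepa1 had the largest change of the 9 genes, at 1.73 ± 0.16 (SE) in 0P vs 0ND (3.32-fold, adjusted p = 1.03e-06) and 1.11 ± 0.14 in 8P vs 8ND (2.15-fold, adjusted p = 2.4e-05). Both calls were kept when any 1 library was left out.

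Skil, the repressor of SMAD complexes, was at 309, 268, 389, 325 and 271 CPM in 8P and 279.5, 259, 269 and 297 CPM in 0P. It was at 260.4, 231, 207, 198 and 234 CPM in 8ND and 225, 173, 230.4 and 227 CPM in 0ND. Every P library thus exceeded the ND libraries of its dose, by a small margin between 8P 2 and 8ND 1. Skil was higher by 0.47 ± 0.11 on the log2 scale in 8P vs 8ND (adjusted p = 0.00411) and by 0.37 ± 0.13 in 0P vs 0ND (adjusted p = 0.0303). The second call rested on few libraries, since it was lost without 0ND 2, 0P 1 or 0P 4, with adjusted p up to 0.111, and without the filter on low counts (adjusted p = 0.0597).

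Smad7, which blocks the receptor, was at 106, 84.6, 91.7, 102 and 71.1 CPM in 8P, against 70.8, 70.9, 61.2, 71.3 and 64.4 CPM in 8ND. The library 8P 5 lay inside the 8ND range, and the other 8P libraries lay above it. The increase of 0.43 ± 0.11 passed the test (adjusted p = 0.00695) and was kept without any 1 library. In 0P the level was 74.4, 86.9, 104 and 90.4 CPM, against 64.0, 70.9, 71.0 and 77.3 CPM in 0ND, where 0P 1 overlapped 0ND 4. That difference of 0.33 ± 0.12 had an adjusted p of 0.0512 and thus sat just outside the threshold. It passed with DESeq2 (adjusted p = 0.0348) and with other size factors (adjusted p = 0.0397). Of the 8 fits without 1 library it passed in 1, the fit without 0P 1 (adjusted p = 0.0215), and adjusted p ran up to 0.139.

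Of the receptors, Tgfbr1 passed the test at both doses and Tgfbr2 at neither. Tgfbr1, the type I receptor kinase, was at 125, 125, 143, 134 and 133 CPM in 8P, against 99.4, 93.1, 107, 90.0 and 105 CPM in 8ND, with no overlap. It was at 123, 104, 99.7 and 125 CPM in 0P, against 107, 67.7, 95.9 and 84.1 CPM in 0ND, where the groups overlapped. The log2 fold changes were 0.42 ± 0.11 (adjusted p = 0.00735) and 0.35 ± 0.12 (adjusted p = 0.0359), and the second was lost without 0ND 2, 0ND 4, 0P 1 or 0P 4 (adjusted p up to 0.132), without the filter (adjusted p = 0.102) and with the other groups left out of the fit (adjusted p = 0.095). Tgfbr2, which binds the ligand, ran from 178 to 265 CPM in 8P and from 182 to 204 CPM in 8ND, and from 147 to 229.6 CPM in 0P and 146 to 176 CPM in 0ND. Its log2 fold changes of 0.29 ± 0.12 (adjusted p = 0.0721) and 0.28 ± 0.13 (adjusted p = 0.114) were close to those of Tgfbr1. Among fits without 1 library, Tgfbr2 passed only without 8P 1 (8P vs 8ND, adjusted p = 0.0185) and without 0P 3 (0P vs 0ND, adjusted p = 0.0191). In 8P vs 8ND it sat at the threshold with the other groups left out of the fit (adjusted p = 0.05). No test of the difference between the receptors was run.

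Smad3, the transducer, lay at 57.6 to 79.7 CPM in 8P and 49.6 to 64.6 CPM in 8ND (0.20 ± 0.12, adjusted p = 0.238). In 0P it lay at 62.0 to 87.3 CPM, against 49.6 to 67.4 CPM in 0ND (0.32 ± 0.13, adjusted p = 0.0748). The ligands did not pass either test, and their spread between libraries was wide. Tgfb2 was at 15.7, 14.5, 8.04, 17.4 and 27.0 CPM in 8P and 9.40 to 13.9 CPM in 8ND (0.55 ± 0.29), and at 11.2, 8.93, 8.37 and 22.2 CPM in 0P and 5.74 to 10.7 CPM in 0ND (0.64 ± 0.33). Tgfb1 differed by 0.10 ± 0.21 in 8P vs 8ND and by 0.37 ± 0.23 in 0P vs 0ND. In 0ND it was at 33.6, 17.3, 20.2 and 17.0 CPM, against 24.4 to 31.8 CPM in 0P. Without 0ND 1, the high library, the Tgfb1 difference was 0.66 and passed the test (adjusted p = 0.0326).

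Tgfbi, a matrix protein gene induced by the signal, was at 83.9, 111, 122 and 92.4 CPM in 0P, against 55.9, 58.5, 41.4 and 47.4 CPM in 0ND. All 0P libraries were above all 0ND libraries. The change of 1.01 ± 0.19 (2.01-fold, adjusted p = 4.77e-04) was kept without any 1 library. In 8P it was at 64.7, 105, 44.8, 63.3 and 70.6 CPM, against 56.1, 54.7, 57.1, 50.5 and 64.8 CPM in 8ND, so the groups overlapped and the difference of 0.30 ± 0.17 did not pass (adjusted p = 0.211). Summed fibroblast markers moved with it in 0P vs 0ND, in that every 0P library was above every 0ND library, and in 8P the lowest sum was in 8P 3, which had the least Tgfbi, while the highest was in 8P 5 and the most Tgfbi in 8P 2. Of the 10 fibroblast markers, 5 were higher and 1 lower in 0P vs 0ND (60% called, against 31.6% of all genes). In 8P vs 8ND 1 was higher and 1 lower (20%, against 28.2%). The part of fibroblast RNA in the Tgfbi values was not tested.

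**Figure D2:**
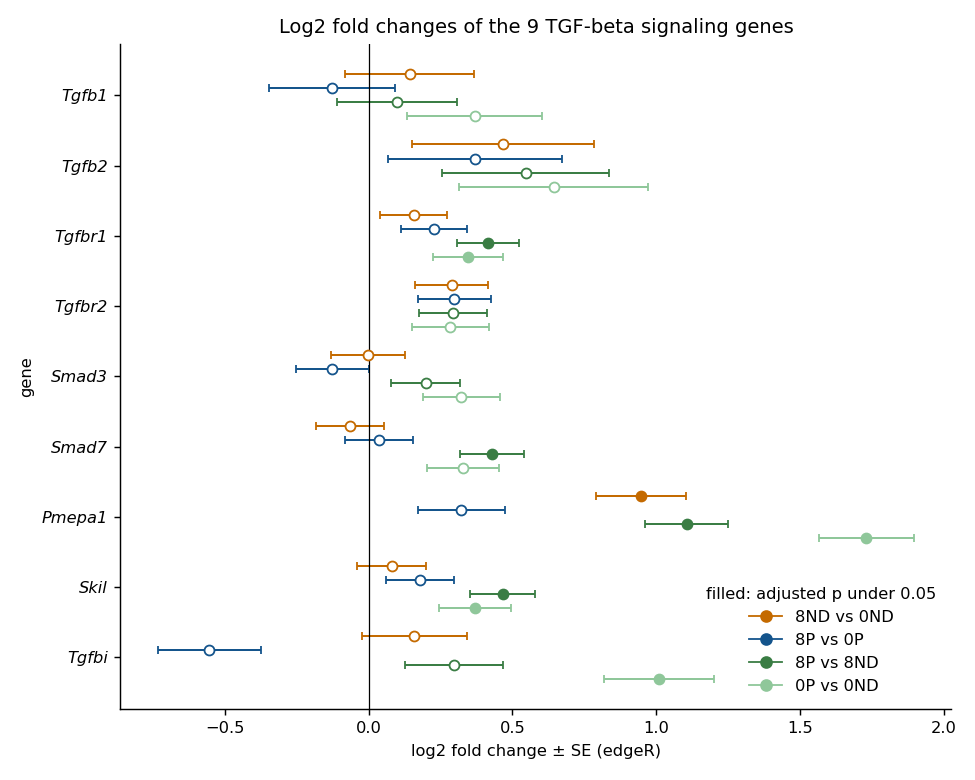
Log2 fold change of each gene with its SE from edgeR, for both doses of dysplasia and both effects of dose, with filled points for an adjusted p under 0.05. All P vs ND values lie above 0, and Pmepa1 has the only filled point for dose.

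Outside dysplasia, the effect of dose was read from 8ND vs 0ND. Of the 9 genes 1 was called higher and none lower, Pmepa1, where 0.0289% of all genes were called higher and 0.0192% lower (0.0481% in all). It was also the fifth smallest p-value of all 20787 genes. Its fitted difference was 0.95 ± 0.16 (1.93-fold, adjusted p = 0.0265). All 5 libraries of 8ND were above all 4 of 0ND, and the highest were 8ND 1 and 8ND 2, which were also the ND libraries nearest to P on the first principal component. The call was kept in 5 of the 9 fits that left out 1 library and was lost without 8ND 1, 8ND 2, 0ND 2 or 0ND 4, with log2 fold changes from 0.83 to 1.05 and adjusted p up to 0.135. Without both 8ND 1 and 8ND 2 the difference was 0.67 (adjusted p = 0.318), and Pmepa1 also missed the threshold with limma-voom (adjusted p = 0.0533) and with the other groups left out of the fit (adjusted p = 0.0734).

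**Figure D3:**
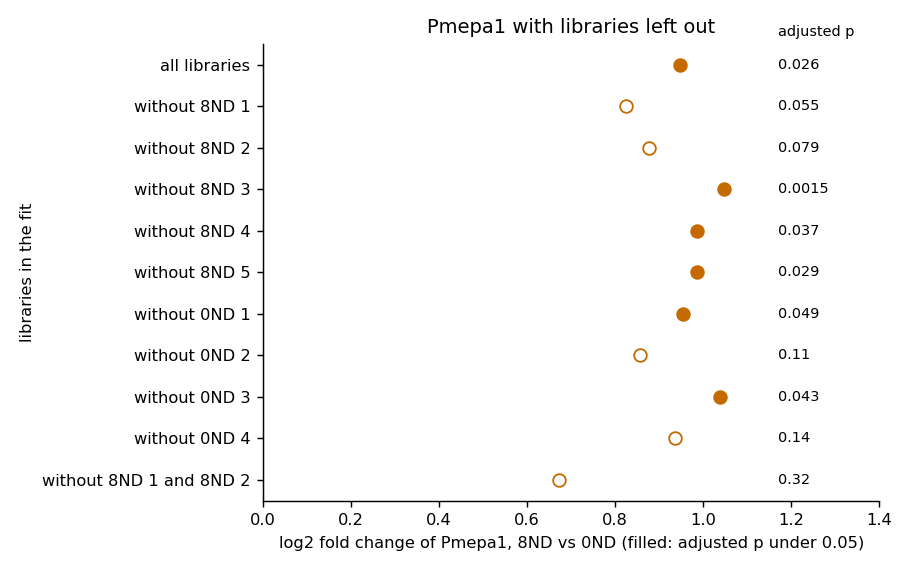
Log2 fold change of Pmepa1 in 8ND vs 0ND with all libraries, with each library left out in turn, and without both 8ND 1 and 8ND 2. Filled points have an adjusted p under 0.05, which is printed at the right. The values stay between 0.67 and 1.05.

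Tgfbr2 was the other gene whose groups did not overlap in 8ND vs 0ND, where 2.15% of all genes had 8ND wholly above 0ND. It was at 190.4, 198, 182, 186 and 204 CPM in 8ND, against 176, 159, 148 and 146 CPM in 0ND, a difference of 0.29 ± 0.13 that did not pass (adjusted p = 0.45). The other 7 genes had log2 fold changes from -0.06 ± 0.12 (Smad7) to 0.47 ± 0.32 (Tgfb2), all with overlapping groups. The median of the 9 was 0.16, against 0.0033 over all tested genes. Without 8ND 1 and 8ND 2, 0 of the 9 passed.

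Within dysplasia, none of the 9 genes passed in 8P vs 0P by edgeR, nor by DESeq2 or limma-voom, and 3 had an unadjusted p under 0.05 (Tgfbi, Tgfbr2 and Pmepa1). Over all genes 0% were called, and 10.1% had an unadjusted p under 0.05. Pmepa1 was 0.32 ± 0.15 higher in 8P (adjusted p = 0.488) with no overlap of the groups, and Tgfbr1 was 0.23 ± 0.12 higher (adjusted p = 0.507), where the lowest 8P and the highest 0P library were both at 125 CPM. In this comparison 1.36% of all genes had 8P wholly above 0P. Tgfbi went the other way, with 4 of the 5 libraries of 8P below every 0P library and 8P 2 inside the 0P range, at -0.55 ± 0.18 (adjusted p = 0.458). Tgfbr2 differed by 0.30 ± 0.13 (adjusted p = 0.472) and Smad7 by 0.04 ± 0.12.

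Whether dose acted differently in the dysplastic and the other epithelium was tested by an interaction term, which none of the 9 genes passed by edgeR, DESeq2 or limma-voom. It had 2 genes with an unadjusted p under 0.05, as 10.4% of all genes did, and 0% of all genes were called. For Pmepa1 the dose effect in P minus that in ND was -0.62 ± 0.21 (adjusted p = 0.345), and for Tgfbi it was -0.71 ± 0.26 (adjusted p = 0.362). For the other 7 genes it ran from -0.27 ± 0.31 (Tgfb1) to 0.10 ± 0.17 (Smad7). The SEs of 0.16 to 0.44 set the size of difference that this number of libraries can show.

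The genes whose profile was most like each of the 9 were taken by Pearson's r of log2 CPM over the 18 libraries, among 11710 genes with a mean of at least 5 CPM. Since the libraries form ND and P sets, a gene that differs between them ranks high, and r within groups is given beside it as a description. For Pmepa1 they were Ptprz1 (r = 0.97, 0.77 within groups), Evx1os (0.97, 0.70 within groups) and Cdh13 (0.96, 0.59 within groups). For Skil they were Eef1e1 (0.94, 0.82 within groups), Atp2c1 and Zfand5. For Tgfbi they were Nup188 (0.94, 0.86 within groups), Tmem176b and Mcm2. For the receptors they were Pfkfb3, Pbdc1 and Spire1 (Tgfbr1) and Lox, Nupr1 and Adamdec1 (Tgfbr2), of which Lox, a collagen cross-linking enzyme, had an r of 0.92 (0.89 within groups). For Smad7 they were Atrn, Pgm2l1 and Slc31a1, and for Smad3 they were Card10, Pwwp2b and Nup214. The ligand Tgfb1 was most like Nfkbie, Ptprv and Csf2rb, and Tgfb2 most like Pcdh7, Wdr34 and Fat3.

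Among the other pathway genes, log2 fold changes between P and ND ran from -1.76 to 1.87 at 8 mg FA and from -2.03 to 3.55 at 0 mg FA. Of the 59 tested, 19 were higher and 9 lower in 0P vs 0ND (47.5%, against 31.6% of all genes), and 13 were higher and 7 lower in 8P vs 8ND (33.9%, against 28.2% of all genes). Their median log2 fold changes were 0.24 and 0.09. None was called in 8ND vs 0ND, 8P vs 0P or the interaction by edgeR, where 12, 4 and 9 had an unadjusted p under 0.05 (9.91%, 10.1% and 10.4% of all genes did), and DESeq2 called 4 in 8ND vs 0ND.

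Of 4 other ligands tested, 2 were higher in 8P vs 8ND and 3 in 0P vs 0ND, and none was lower, where 13.9% and 15.9% of all genes were higher. Inhbb, which encodes a subunit of activin B, averaged 20.4 ± 5.07 CPM in 8P and 5.49 ± 2.30 CPM in 8ND, and 20.7 ± 4.66 CPM in 0P and 2.17 ± 0.426 CPM in 0ND. Its log2 fold changes were 1.87 ± 0.26 and 3.21 ± 0.32 (adjusted p = 4.36e-05 and 1.38e-06). Gdf11, a ligand of the same branch of the family, averaged 57.9 ± 15.8 CPM in 8P and 16.8 ± 6.29 CPM in 8ND (1.76 ± 0.31), and 60.0 ± 30.0 CPM in 0P and 9.43 ± 2.41 CPM in 0ND (2.65 ± 0.37). Inhba, the activin A subunit, rose in 0P vs 0ND (1.43 ± 0.51, adjusted p = 0.0425), a call that was lost in 5 of the 8 fits without 1 library (0ND 1, 0ND 2, 0ND 4, 0P 3 or 0P 4), and it was not called in 8P vs 8ND (adjusted p = 0.901). Groups did not overlap for any of these calls. Over all genes, 16.2% had 0P wholly above 0ND and 8.26% had 8P wholly above 8ND.

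Of 13 genes that hold or release latent TGF-beta, 5 were higher and none lower in 0P vs 0ND (38.5% called, against 31.6% of all genes), and 3 were higher and 1 lower in 8P vs 8ND (30.8%, against 28.2%). The integrin subunit Itgb8 rose by 1.67 ± 0.43 in 0P and 1.79 ± 0.38 in 8P, and its partner Itgav by 0.84 ± 0.11 and 0.61 ± 0.10. Thbs1, the activator thrombospondin 1, rose by 2.30 ± 0.25 in 0P and 1.33 ± 0.22 in 8P, and it is among the genes that the study chose on these samples, so its direction is not independent evidence. Ltbp4, a binding protein of latent TGF-beta in the matrix, fell in 8P to 48.3 ± 13.6 CPM, against 96.4 ± 19.6 CPM in 8ND (2.00-fold lower, adjusted p = 4.68e-04). It was also lower in 0P vs 0ND but did not pass (-0.49 ± 0.20, adjusted p = 0.0702). The part of other cell types in these values was not tested.

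Of 7 receptors other than Tgfbr1 and Tgfbr2, 4 were lower and none higher at each dose, where 15.7% of all genes were lower in 0P vs 0ND and 14.3% in 8P vs 8ND. Acvr2a, Acvr2b and Eng did not pass at either dose, and the Acvrl1 call in 0P vs 0ND (-0.53 ± 0.19, adjusted p = 0.0406) was kept in 1 of 8 fits without 1 library, the one without 0P 1. Acvr1c, an activin-type I receptor (ALK7), averaged 6.82 ± 1.84 CPM in 8P and 23.1 ± 6.57 CPM in 8ND (-1.76 ± 0.24), and 6.41 ± 2.17 CPM in 0P and 26.4 ± 3.99 CPM in 0ND (-2.03 ± 0.27). Tgfbr3, the co-receptor betaglycan, was at -1.10 ± 0.27 in 8P and -1.17 ± 0.30 in 0P, and Acvr1b, the main activin type I receptor, at -0.84 ± 0.11 and -0.90 ± 0.12. Of 3 transducers, Smad4 was lower in 0P vs 0ND (-0.52 ± 0.15, adjusted p = 0.0135, lost without 0ND 2 or 0P 3), and Zfyve9, the anchor that presents SMADs to the receptor, was higher in 8P vs 8ND (0.30 ± 0.10, adjusted p = 0.0297, lost without 8ND 3, 8P 1 or 8P 5).

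Of 15 other inhibitors, 7 were higher and 3 lower in 0P vs 0ND (66.7% called, against 31.6% of all genes). In 8P vs 8ND 5 were higher and 1 lower (40%, against 28.2%). Fst, the activin trap follistatin, averaged 10.9 ± 2.03 CPM in 8P and 3.28 ± 1.42 CPM in 8ND (1.71 ± 0.38), and 14.7 ± 7.73 CPM in 0P and 1.16 ± 0.692 CPM in 0ND (3.55 ± 0.47). The SMAD co-repressors Tgif2 and Tgif1 rose by 1.39 ± 0.33 and 1.05 ± 0.14 in 8P and by 1.85 ± 0.37 and 1.35 ± 0.16 in 0P, and the decoy receptor Bambi rose in 0P (1.36 ± 0.23). Nedd4l, a ubiquitin ligase that removes activated SMADs, fell to 90.5 ± 9.63 CPM in 8P, against 153 ± 14.7 CPM in 8ND (-0.76 ± 0.11), and to 87.9 ± 15.9 CPM in 0P, against 212 ± 15.1 CPM in 0ND (-1.27 ± 0.13). The ligase Wwp1 (-0.50 ± 0.10) and the phosphatase Ppm1a (-0.33 ± 0.12) fell in 0P vs 0ND, and the Ppm1a call was lost without any 1 of 6 libraries (0ND 2, 0ND 3, 0ND 4, 0P 1, 0P 2 or 0P 3).

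Classical targets moved less. Of 17, 4 were higher and 1 lower in 0P vs 0ND (29.4% called, against 31.6% of all genes). In 8P vs 8ND 2 were higher and 1 lower (17.6%, against 28.2%). Col1a1 (1.27 ± 0.27) and Fn1 (1.20 ± 0.26), which encode matrix proteins, rose in 0P. In 8P vs 8ND Fn1 (0.86 ± 0.23) and Rhob, a small GTPase gene (0.79 ± 0.15), rose. Col1a1 sat just outside the threshold there (0.64 ± 0.23, adjusted p = 0.0503). It passed without 8P 3 or without 8P 4, and not in the other 8 of 10 fits without 1 library. Zeb1, a transcription factor of mesenchymal cells, was lower at both doses (-0.41 ± 0.13 in 8P and -0.39 ± 0.14 in 0P), and its call was lost in 8P without 8P 4 and in 0P without any 1 of 6 libraries (0ND 1, 0ND 2 or any 0P library). Col1a1 is also on the fibroblast marker list, whose sum was higher in 0P than in 0ND, and the part of fibroblast RNA in these values was not tested.

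**Figure D4:**
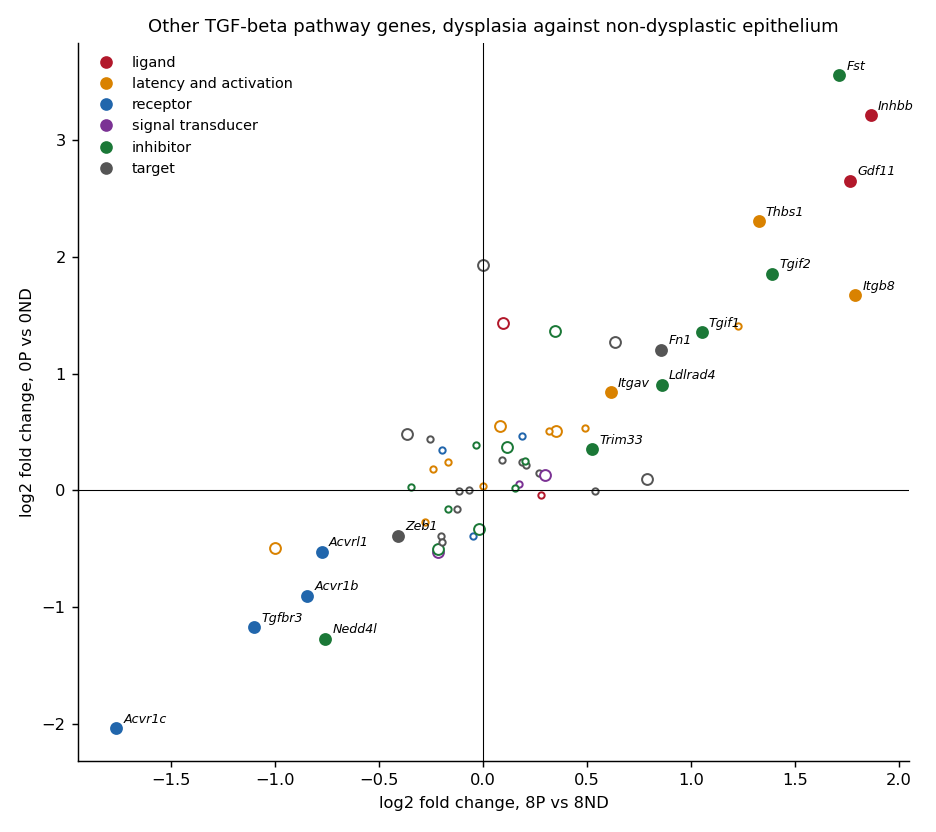
Log2 fold changes of the 59 other pathway genes in 8P vs 8ND (horizontal) and 0P vs 0ND (vertical), colored by role. Filled points passed the test in both comparisons with all libraries and are named, large open points passed in 1, and small points in none. Inhbb, Gdf11 and Fst lie at the upper right, and the receptors Acvr1c, Tgfbr3, Acvr1b and Acvrl1 at the lower left.

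For the dose comparisons the pathway genes with the smallest p-values are given, none of which passed. In 8ND vs 0ND they were Inhbb (1.33 ± 0.31, adjusted p = 0.097), Nedd4l (-0.47 ± 0.12, adjusted p = 0.12) and Thbs1 (0.90 ± 0.24, adjusted p = 0.134). The study reported Thbs1 as significantly higher in this same comparison of these samples and chose it partly for that. Its direction here is therefore not independent evidence. In 8P vs 0P they were Ltbp4 (-0.69 ± 0.19, adjusted p = 0.434), Dcn, a matrix proteoglycan that binds TGF-beta (-0.52 ± 0.17, adjusted p = 0.46), and Bambi (-0.54 ± 0.21, adjusted p = 0.465). In the interaction they were Ccn2 (-0.85, adjusted p = 0.313), Inhbb (-1.35, adjusted p = 0.316) and Bambi (-1.02, adjusted p = 0.316).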

How the data were processed

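For each library the authors deposited raw read counts per gene name. Per the labels and the methods, libraries were made from 40 ng total RNA with a stranded low-input kit, Bowtie placed the reads on mm10, and HTSeq counted them. For both tools the version is not given in the sources used here, nor is the use of strand, so reads of antisense neighbours cannot be told apart. Counts include PCR copies, since no molecular identifiers are mentioned. The 5 lines that name no gene were left out. They held reads outside genes (22.0 to 40.7% of a library), reads without a unique alignment (40.1 to 62.2%) and reads ambiguous between genes (0.220 to 0.384%). No batch is given in the labels.

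The test was the quasi-likelihood F test of edgeR 4.0.16 (R 4.3.3), after filterByExpr with a minimum count of 10 and TMM scaling. A mean per group was fitted robustly to all 18 libraries together. Adjustment was by Benjamini-Hochberg over the 20787 genes, with a threshold of 0.05. Each SE equals the absolute log2 fold change over the root of its F. Marker sums are CPM of total counts. Levels per kb use GENCODE M21 exons. The script was tested on simulated data. The 32 pairs of libraries within a group all differed beyond sampling noise. Alternatives were DESeq2 1.42.0, limma-voom 3.58.1, other size factors, no filter, the compared groups alone, a replicate block, and libraries left out.

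Members and lists were chosen with earlier results of these data known. Named were all 9 genes. Of the pathway genes, up to 3 past the threshold per role and direction with the largest log2 fold change were named, or the 3 smallest p-values where none passed. Genes most like each of the 9 were the 3 of highest r, leaving out gene models. Acvrl1, Acvr2a, Acvr2b and Eng lie outside this rule and were named after their values were seen. A gene that the rule takes is left out of the text.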

Additional observations from a re-analysis of the deposited data

Results flagged for a closer look

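Among 36 sets of values (9 genes in 4 groups), 1 held a library far from the others. Skil was at 173 CPM in 0ND 2, while the other 0ND libraries lay between 225 and 230.4 CPM, and the gap took 0.902 of the group's range. Chance flags about 1 in 20 such groups. Without 0ND 2 the Skil difference in 0P vs 0ND no longer passed the test.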

How the results depend on the processing

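Among log2 fold changes of the 9 genes under alternatives other than leaving out 1 library, 275 kept direction and side of the threshold, 3 came to pass, 7 no longer passed and 3 changed sign, all near 0 (Smad3 in 8ND vs 0ND at 0.013 with limma-voom and 0.028 with the replicate block, and Skil at -0.0067 without 8ND 1 and 8ND 2). The 1 gene called in 8ND vs 0ND became 0 with limma-voom, with the 2 groups alone and without 8ND 1 and 8ND 2, and the 4 in 0P vs 0ND became 2 without a filter (Pmepa1 and Tgfbi). DESeq2 called 4 pathway genes in 8ND vs 0ND. The 10 genes called among all in 8ND vs 0ND became 310 with DESeq2, 4 with limma-voom, 41 without a filter, 28 with the replicate block and 0 without 8ND 1 and 8ND 2. The 0 in 8P vs 0P (2093 with an unadjusted p under 0.05 by edgeR) became 2 with other size factors, 17 with DESeq2, 2 without a filter and 3 with the block, and the 0 in the interaction (2163 unadjusted) became 82 with DESeq2 and 1 without a filter. The cause was not tested. 

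With 1 library left out, counts over all genes ran from 2 to 157 in 8ND vs 0ND (157 without 8ND 3), 0 to 5 in 8P vs 0P, 5302 to 6606 in 0P vs 0ND, 4970 to 6415 in 8P vs 8ND and 0 to 26 in the interaction. Of the 9 genes, 0 to 1 were called in 8ND vs 0ND, 2 to 5 in 0P vs 0ND and 4 to 5 in 8P vs 8ND, and of the pathway genes 0 to 1, 20 to 25 and 19 to 22. Signs changed for Smad3 (-0.065 to 0.083) and Skil (-0.010 to 0.12) in 8ND vs 0ND, Smad7 in 8P vs 0P (-0.038 to 0.11), Tgfb1 in 8P vs 8ND (-0.053 to 0.22), and Tgfb2 (-0.34 to 0.33), Tgfbr1 (-0.031 to 0.18) and Tgfbr2 (-0.11 to 0.11) in the interaction.

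No source says that replicate numbers mark a shared animal, and they were not taken as pairs, since not every correlation of same-numbered deviations was over 0.1. They ran from 0.026 to 0.196 in 0P vs 0ND and from -0.079 to 0.273 in 8P vs 8ND, and 3 of 4 and 2 of 5 libraries correlated best with their own number. With the replicate block, Skil in 0P vs 0ND had an adjusted p of 0.0583. Depth limits the ligands most, with 44 to 357 reads per library for Tgfb2, against 332 to 5114 for Pmepa1.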
